A study of Mus musculus with 4 samples.

Results

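The comparison described here sets Flk-1-positive mesoderm of a doxycycline-treated, inducible ER71 line against Flk-1-positive mesoderm that lacks a working Er71 gene. It uses 2 of the 4 arrays of the series, 1 for each population, and these 2 arrays carry the widest labelled contrast of ER71 dose. The measure is the log2 intensity on the doxycycline array minus the log2 intensity on the Er71-deficient array, for each gene. Of 14860 genes that could be named from probe sets with exactly 1 symbol, 8843 were detected and entered the comparison. Detection asked that a gene's brightest array be at or above the median of all deposited values, a log2 intensity of 6.16.

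All cells came from mouse embryonic stem (ES) cells that had been kept on feeder cells, differentiated in serum and sorted for Flk-1 at day 3. The array compared first is of iER71 ES cells, labelled wild-type in genotype, treated between day 2 and day 3 with doxycycline at 1 mg/ml. The array it is set against is of Er71-/- ES cells with no doxycycline label. The other arrays are of iER71 cells without doxycycline and of wild-type ES cells, and their values are given in that order beside each result. The inducible and the deficient cells are different ES lines, so line, doxycycline and ER71 dose changed together and cannot be told apart in this comparison. The labels of the iER71 arrays disagree with each other. Its title calls the doxycycline-treated array a control, whereas the title of the untreated one says that ER71 was overexpressed. Arrays are named here by their doxycycline label. Per the labels, small amounts of RNA were amplified and then labelled. With 1 array in each group there is no replicate check, so sizes are given with no error and no test.

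ER71, encoded by Etv2, belongs to the ETS transcription factors, which bind DNA at a GGAA core. It acts for a short time in mesoderm that carries Flk-1, the VEGF receptor encoded by Kdr, and mouse embryos without it form neither blood nor vessels. Flk-1-positive mesoderm can also give rise to heart and smooth muscle.

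Median intensities were 72.3 on the doxycycline array and 71.3 on the Er71-deficient array, against 71.3 without doxycycline and 71.7 in wild type. Exactly equal values on the doxycycline and Er71-deficient arrays were common in the deposited table: 3608 of 23332 probe sets (15.5%) had them, 1196 of the detected genes among these. The median difference over all detected genes was 0.00, and the median size of a difference, whatever its sign, was 0.13 on the log2 scale.

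Etv2 itself had a log2 intensity of 10.50 with doxycycline and 8.89 in Er71-deficient cells, with 10.05 in iER71 cells without doxycycline and 9.39 in wild type. The doxycycline array was the brightest and the Er71-deficient array the dimmest, 3.06-fold apart, although Etv2 stayed far over the detection level in the deficient cells. The place of the probes with respect to the deletion and the inducible transgene is not given in the sources used here. Etv2 therefore checks the labels only in part. Kdr, on which the cells were sorted, had 10.19 with doxycycline and 9.67 in Er71-deficient cells, with 9.96 without doxycycline and 9.89 in wild type. Kdr was thus bright on every array and 1.44-fold higher with doxycycline.

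The other markers of Flk-1-positive mesoderm did not all keep the level of Kdr. The blood and vessel factors Tal1 and Lmo2 were over the detection level on all arrays. On the doxycycline array Pdgfra and Mesp1 lay under it, at 5.30 and 5.98, and Hand1 lay at 6.61. On the Er71-deficient array these 3 were over it, with Pdgfra at 8.64, Mesp1 at 8.33 and Hand1 at 8.63. The 5 endothelial markers summed to an intensity of 5023 with doxycycline and 156 in Er71-deficient cells, with 1064 without doxycycline and 1568 in wild type. All 5 were over the detection level with doxycycline and none was in Er71-deficient cells. In these sorted populations, fewer cells of a type and less RNA per cell cannot be told apart.

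Summed markers of other cell types that a sort could carry along differed less than the endothelial sum. The 3 measured cardiac markers summed to 194 with doxycycline and 715 in Er71-deficient cells, and the 5 measured blood markers to 226 with doxycycline and 250 in Er71-deficient cells. The 5 ES cell markers summed to 1023 with doxycycline and 843 in Er71-deficient cells, and the 4 endoderm markers to 318 with doxycycline and 176 in Er71-deficient cells. The 3 neuroectoderm markers summed to 245 with doxycycline and 439 in Er71-deficient cells, and the 5 feeder markers to 563 with doxycycline and 439 in Er71-deficient cells. Their part in the results was not tested. The pan-leukocyte gene Ptprc was at 3.39 on all 4 arrays, below the detection level. The embryonic globin gene Hbb-y was at 4.94 with doxycycline and 5.29 in Er71-deficient cells, also below it, with 5.63 without doxycycline and 8.71 in wild type.

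On the doxycycline array, 406 genes (4.59% of 8843) exceeded the Er71-deficient level by at least 2-fold. Lower by at least 2-fold were 178 genes (2.01%), so that 69.5% of the 584 differences of this size were towards higher. Differences of at least 4-fold were seen for 113 genes higher (1.28%) and 50 genes lower (0.565%). Many of the larger ratios rest on a dim array: the dimmer array of the 2 lay below the detection level for 182 of the 406 higher genes and for 73 of the 178 lower genes. For 332 of the 406 and 138 of the 178, the brighter array was itself at least 2-fold over the detection level. Taking the iER71 array by its title, that is the array without doxycycline, left 105 genes at least 2-fold higher and 43 lower.

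The 15 largest differences towards higher were led by Cdh5 (72.5-fold), Tek (68.2-fold) and Fli1 (61.5-fold). They were followed by Lcp1 (28.7-fold), Ramp2 (28.4-fold), Tspan18 (26.3-fold), St8sia1 (20.9-fold), Selenop (20.6-fold), Gimap4 (17.8-fold) and Rhoj (16.8-fold). Klhl4 (16.1-fold), Calcrl (15.9-fold), Myct1 (15.4-fold), BC028528 (14.8-fold) and Tmem255a (14.6-fold) completed them. A second probe set for St8sia1, a sialyltransferase that makes gangliosides, differed by only 0.73 on the log2 scale. The 15 largest differences towards lower were Rgs5 (22.3-fold), Bmp5 (21.4-fold), Phlda2 (21.0-fold), Myl7 (13.9-fold), Frzb (13.5-fold), Lhx1 (10.6-fold), Dact1 (10.3-fold), Pdgfra (10.1-fold), Pcsk5 (9.59-fold), Asb4 (8.95-fold), Plac8 (8.94-fold), Prdx2 (8.67-fold), Cdh11 (8.08-fold), Rragd (7.10-fold) and Pdlim3 (7.07-fold). The levels of all 30 are drawn in the plot of the largest differences.

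**Figure D1:**
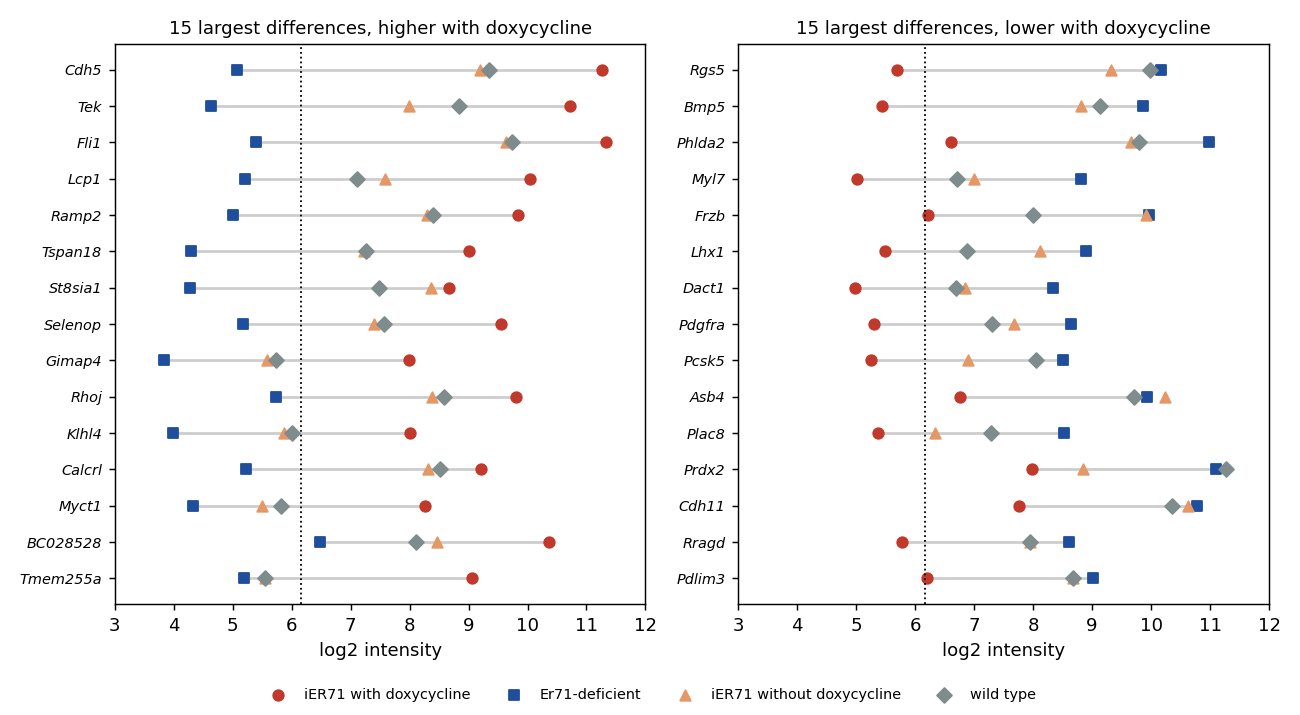
Log2 intensity (horizontal axis) of the 15 genes with the largest difference each way on the 4 arrays, 1 point per array, with a grey line between the doxycycline and Er71-deficient arrays and a dotted line at the detection level of 6.16. Cdh5 lies at 11.26 with doxycycline and 5.08 in Er71-deficient cells, and Rgs5 at 5.69 with doxycycline and 10.16 in Er71-deficient cells, with the other arrays of most genes in between.

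Endothelial genes had the largest median difference of the lists reported here. Of 33 detected members of the list of endothelial surface, junction and receptor genes, 22 were higher by at least 2-fold with doxycycline and 0 were lower by that much, against 4.59% and 2.01% of all detected genes. The median difference of the list was 2.19 on the log2 scale, against 0.00 over all detected genes. Its median level was 8.10 with doxycycline and 5.62 in Er71-deficient cells, with 6.53 without doxycycline and 6.74 in wild type. For 31 of the 33 members the doxycycline array was the brightest of the 4, against 39.6% of all detected genes. Edn1, Emcn, Myct1, Cldn5 and Vwf were detected through the doxycycline array alone, so the filter fixed which array was brightest for them. Without a detection level, 22 of 36 members were at least 2-fold higher and 0 lower, with a median of 2.07. The Er71-deficient array was the dimmest for 32 of the 33 detected members, against 42.7% of all detected genes.

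Among the junction genes, the vascular cadherin Cdh5 had a log2 intensity of 11.26 with doxycycline and 5.08 in Er71-deficient cells, with 9.19 without doxycycline and 9.34 in wild type. Its doxycycline level was 34.2-fold over the detection level, and its deficient level lay below it. Pecam1, an adhesion molecule at contacts between endothelial cells, had 8.73 with doxycycline and 5.36 in Er71-deficient cells, with 7.08 without doxycycline and 8.56 in wild type. For Pecam1 the wild-type array was close to the doxycycline array, which was not so for Cdh5. The tight-junction gene Cldn5 was 7.07-fold higher with doxycycline, and Esam, another adhesion gene of endothelial junctions, was 3.53-fold higher.

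Among the receptors, Tek, which binds angiopoietins, had 10.72 with doxycycline and 4.62 in Er71-deficient cells, with 7.99 without doxycycline and 8.84 in wild type. Tek was thus brightest with doxycycline and dimmest in the deficient cells, with a wide gap between. The VEGF receptor gene Flt1 had 10.07 with doxycycline and 6.92 in Er71-deficient cells, with 8.69 without doxycycline and 8.14 in wild type, an 8.91-fold difference with both compared arrays over the detection level. Kdr, its relative, differed by 1.44-fold, and the VEGF co-receptor Nrp1 by -0.23 on the log2 scale. Calcrl and Ramp2 together form the adrenomedullin receptor. Calcrl had 9.21 with doxycycline and 5.22 in Er71-deficient cells, with 8.31 without doxycycline and 8.51 in wild type. Ramp2 had 9.83 with doxycycline and 5.0 in Er71-deficient cells, with 8.30 without doxycycline and 8.40 in wild type. Both receptor parts were thus low in the Er71-deficient cells alone, and the doxycycline array stood above the remaining arrays by a smaller step. The orphan receptor Tie1 (4.53-fold), the sphingosine phosphate receptor S1pr1 (4.94-fold), the lectin-like receptor Cd93 (4.88-fold) and the adhesion receptor Adgrl4 (4.58-fold) were also higher, as were the endothelin receptor Ednrb (3.12-fold) and the TGF-beta co-receptor Eng (2.08-fold).

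Other surface and secreted products followed. Edn1, which encodes the vasoconstrictor endothelin, had 8.49 with doxycycline and 5.47 in Er71-deficient cells, with 5.81 without doxycycline and 5.81 in wild type. The sialomucin gene Emcn had 7.71 with doxycycline and 4.32 in Er71-deficient cells, with 4.76 without doxycycline and 4.78 in wild type. Edn1 and Emcn were over the detection level on the doxycycline array alone. Myct1 had 8.27 with doxycycline and 4.32 in Er71-deficient cells, with 5.49 without doxycycline and 5.82 in wild type, the same order. Cd34, a sialomucin of endothelium and blood progenitors, was 8.48-fold higher, the secreted vessel factor Egfl7 6.77-fold, the adhesion gene Icam2 6.44-fold and the matrix gene Mmrn2 3.91-fold. The 11 members short of 2-fold either way were Vwf, Plvap, Nos3, Stab1, Mcam, Clec14a, Procr, Kdr, Aplnr, Robo4 and Nrp1, with differences from -0.23 to 0.94.

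**Figure D2:**
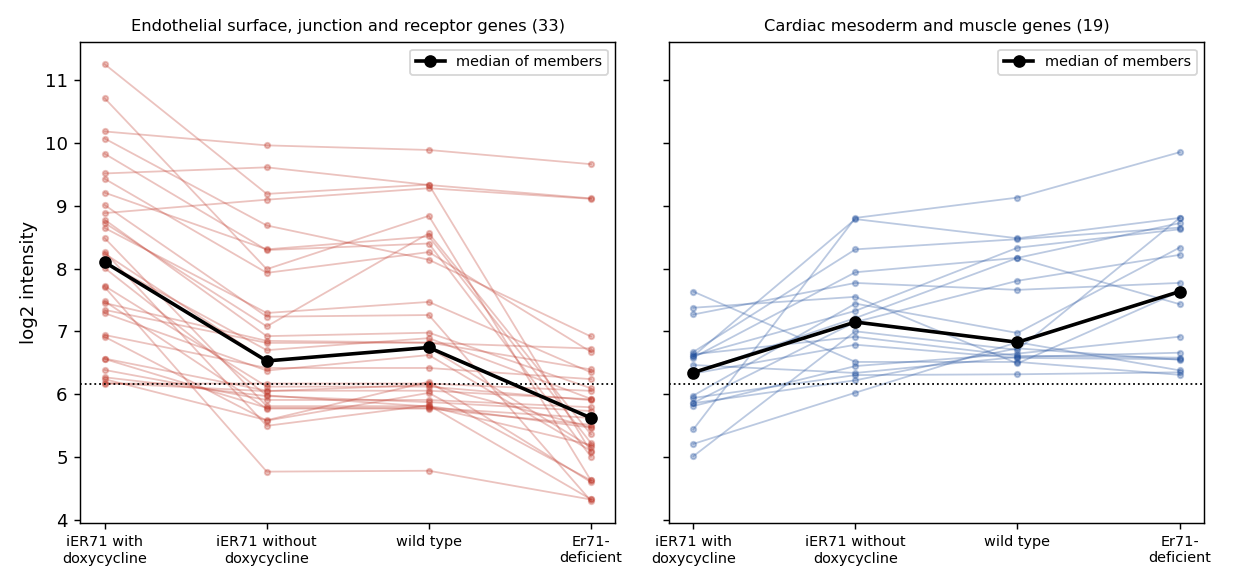
Log2 intensity (vertical axis) of each detected member of the endothelial list (33 genes, left) and the cardiac list (19 genes, right) on the 4 arrays, 1 thin line per gene, with the list's median in black and the detection level of 6.16 dotted. The endothelial median is 8.10 with doxycycline and 5.62 in Er71-deficient cells, and the cardiac median is 6.34 with doxycycline and 7.63 in Er71-deficient cells.

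The promoters of the 4 endothelial members with the largest difference among those in the promoter table on hand are printed below, since ETS factors bind a GGAA core. They come from RefSeq on the mouse build GRCm38.p6 and cover the 250 bases before the start, written 5′ to 3′ on the gene's own strand, with every GGAA and its reverse complement TTCC in capitals. The promoters of Bmp5 and Myl7, both lower with doxycycline, are shown for contrast. The positions are Tek at chr4:94739039-94739288 (plus strand), Calcrl at chr2:84425267-84425516 (minus strand), Myct1 at chr10:5593478-5593727 (plus strand), Emcn at chr3:137340828-137341077 (plus strand), Bmp5 at chr9:75775115-75775364 (plus strand) and Myl7 at chr11:5898783-5899032 (minus strand).
Tek: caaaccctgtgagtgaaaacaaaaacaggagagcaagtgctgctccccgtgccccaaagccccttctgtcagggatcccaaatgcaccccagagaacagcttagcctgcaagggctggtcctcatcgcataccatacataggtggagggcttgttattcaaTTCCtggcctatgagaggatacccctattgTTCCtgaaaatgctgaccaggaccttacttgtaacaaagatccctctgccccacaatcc
Calcrl: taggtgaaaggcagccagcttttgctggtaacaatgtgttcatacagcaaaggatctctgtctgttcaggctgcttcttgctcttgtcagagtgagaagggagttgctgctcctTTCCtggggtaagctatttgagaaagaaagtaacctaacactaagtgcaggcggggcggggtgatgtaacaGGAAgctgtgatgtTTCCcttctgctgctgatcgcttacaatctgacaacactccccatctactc
Myct1: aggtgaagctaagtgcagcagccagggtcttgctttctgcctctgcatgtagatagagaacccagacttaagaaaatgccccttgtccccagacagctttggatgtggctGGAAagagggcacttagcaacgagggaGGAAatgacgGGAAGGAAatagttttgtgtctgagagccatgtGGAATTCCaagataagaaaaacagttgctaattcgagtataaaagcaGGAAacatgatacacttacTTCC
Emcn: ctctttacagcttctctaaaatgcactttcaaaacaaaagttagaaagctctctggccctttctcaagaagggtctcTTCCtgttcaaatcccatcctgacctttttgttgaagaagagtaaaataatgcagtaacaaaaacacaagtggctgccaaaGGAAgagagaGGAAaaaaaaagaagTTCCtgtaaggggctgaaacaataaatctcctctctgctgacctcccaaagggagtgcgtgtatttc
Bmp5: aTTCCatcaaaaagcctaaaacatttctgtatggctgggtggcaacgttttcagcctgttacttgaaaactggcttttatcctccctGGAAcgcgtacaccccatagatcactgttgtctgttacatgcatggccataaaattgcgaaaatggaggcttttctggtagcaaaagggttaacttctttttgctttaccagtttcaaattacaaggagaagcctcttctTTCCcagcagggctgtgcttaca
Myl7: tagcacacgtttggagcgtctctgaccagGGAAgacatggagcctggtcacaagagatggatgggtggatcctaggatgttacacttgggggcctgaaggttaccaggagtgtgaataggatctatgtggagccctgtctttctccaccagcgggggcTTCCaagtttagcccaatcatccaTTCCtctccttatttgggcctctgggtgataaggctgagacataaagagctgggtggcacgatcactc

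Counted on both strands, GGAA occurred 2 times before Tek, 3 times before Calcrl, 8 times before Myct1 and 4 times before Emcn, and 3 times before each of Bmp5 and Myl7. A core of 4 letters is common, and 93.4% of all 32851 promoters in the table held it. It was present in 93.2% of the promoters of genes at least 2-fold higher and in 93.2% of those at least 2-fold lower. The longer CAGGAA, which contains GGAA, occurred 2 times before each of Tek, Calcrl and Emcn, 1 time before Myct1, and 0 times before Bmp5 and Myl7. Of 26 promoters of 24 endothelial list members, 53.8% held CAGGAA, against 25.7% of all promoters and 21.3% of the promoters of detected genes. Among promoters of all genes at least 2-fold higher the share was 25.2%, and among those at least 2-fold lower 23.0%. The other longer form, CCGGAA, also containing GGAA, was in none of the 6 promoters. It was in 7.69% of the endothelial promoters, 11.2% of those of higher genes, 11.5% of those of lower genes and 22.2% of those of detected genes. The GATA motif AGATAA was found 1 time before Myct1 and in none of the other 5, and in 6.36% of the promoters of higher genes, 6.28% of those of lower genes and 5.63% of those of detected genes. A match is a run of letters in this window and no measured binding. The members and the motifs were chosen with results of these arrays known.

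Transcription factors of vessels and blood were higher with doxycycline in 15 of 31 detected members by at least 2-fold and lower in 1, against 4.59% and 2.01% of all detected genes. The median difference of that list was 0.76, or 0.55 over 34 members without a detection level. Fli1, an ETS factor of endothelium and blood, had 11.33 with doxycycline and 5.39 in Er71-deficient cells, with 9.64 without doxycycline and 9.73 in wild type. The pattern was that of Cdh5, with the deficient array alone under the detection level. Erg, a close relative of Fli1, had 8.64 with doxycycline and 5.52 in Er71-deficient cells, with 7.53 without doxycycline and 8.15 in wild type. Elk3, an ETS factor that can repress, had 9.96 with doxycycline and 6.26 in Er71-deficient cells, with 8.31 without doxycycline and 8.30 in wild type.

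Of the 16 ETS family genes detected, 7 were at least 2-fold higher and 1 lower, against 4.59% and 2.01% of all detected genes. The median difference was 0.27. Besides Fli1, Erg, Elk3 and Etv2, the higher members were Ets2 (6.15-fold), Ets1 (3.83-fold) and Etv6 (2.52-fold). Etv5, which FGF signalling is known to induce, went the other way, with 7.07 with doxycycline and 9.18 in Er71-deficient cells, and 9.32 without doxycycline and 8.39 in wild type. Its relative Etv4 differed by -0.29. Widely expressed members such as Gabpa (0.09), Elk1 (0.08) and Elf2 (0.10) differed little on the log2 scale.

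The endothelial SoxF factors Sox7 (7.68-fold), Sox18 (4.18-fold) and Sox17 (3.37-fold) were all at least 2-fold higher. Sox7 had 9.05 with doxycycline and 6.10 in Er71-deficient cells, with 7.47 without doxycycline and 7.40 in wild type. The homeobox gene Hhex was 4.76-fold higher, the repressor Bcl6b 4.17-fold, Ikzf2 3.36-fold and the muscle and endothelial factor Mef2c 2.51-fold. Bcl6b was counted as detected through the doxycycline array alone. Lmo2, a bridging protein of blood and endothelial factor complexes, had 8.93 with doxycycline and 7.24 in Er71-deficient cells, with 8.73 without doxycycline and 8.46 in wild type. Lmo2 thus stood apart on the deficient array, and the remaining arrays lay within 0.5 of each other. Myb was 2.36-fold and Gata2 2.07-fold higher, while Tal1 differed by 0.48 and Gata1 by -0.11 on the log2 scale. Runx1, needed for definitive blood, was the member lower by 2-fold, with 6.33 with doxycycline and 7.42 in Er71-deficient cells, and 7.24 without doxycycline and 7.92 in wild type. Runx1 was thus dimmest with doxycycline. No member of the list was 2-fold lower once 32 was added to each intensity, once the difference between the array without doxycycline and the wild-type array was taken off, or with the iER71 array taken by its title.

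In the list of blood and erythroid effector genes, 5 of 12 detected members passed 2-fold towards higher and 0 towards lower, with a median of 0.27. Of all detected genes, 4.59% were higher and 2.01% lower by that much. With 32 added to each intensity before the logarithm 3 of the 12 were at least 2-fold higher. With the difference between the array without doxycycline and the wild-type array taken off, 7 of the 12 were, and the median was 1.05. That step added Hbb-y (2.74) and, narrowly, Itga2b (1.003). Hbb-y lay below the detection level on both compared arrays and at 8.71 in wild type. Without a detection level 5 of 23 members were at least 2-fold higher and 0 lower, with a median of 0.00. Lcp1, an actin-bundling protein of leukocytes, had 10.04 with doxycycline and 5.20 in Er71-deficient cells, with 7.58 without doxycycline and 7.12 in wild type. Kit, the stem cell factor receptor, had 8.88 with doxycycline and 5.79 in Er71-deficient cells, with 7.60 without doxycycline and 7.65 in wild type. Lcp1 and Kit were over the detection level on all arrays but the deficient one. The platelet factor Pf4 (3.07-fold), Laptm5 (2.73-fold) and the actin regulator Coro1a (2.22-fold) were the other 3. Pf4 and Coro1a were counted as detected through the doxycycline array alone. The globin genes Hba-x and Hbb-y differed by -0.07 and -0.34 on the log2 scale, and the transferrin receptor Tfrc by -0.68.

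Leukocyte and innate immune genes were higher by 2-fold in 7 of 17 detected members and lower in 1, with a median of 0.81. The shares over all detected genes were 4.59% and 2.01%. Without a detection level 8 of 34 members were higher and 1 lower, and the median was 0.15. With the difference between the array without doxycycline and the wild-type array taken off, 4 of the 17 were lower by 2-fold. Tlr3, a sensor of double-stranded RNA, had 7.93 with doxycycline and 4.47 in Er71-deficient cells, with 5.32 without doxycycline and 5.13 in wild type, so that it was over the detection level on the doxycycline array alone. Its relative Tlr2 was 2.72-fold higher. The endothelial phosphatase Ptprb was 4.91-fold higher and its relative Ptpre 3.41-fold. Lcp1, Gimap4 and Icam2, which also stand in other lists, made up the rest of the 7. Gimap4, like Tlr3, was counted as detected through the doxycycline array alone. Cxcr4, the chemokine receptor of migrating mesoderm and endoderm, was the 1 lower, with 5.96 with doxycycline and 8.75 in Er71-deficient cells, and 8.02 without doxycycline and 8.18 in wild type. The doxycycline array stood alone below the detection level for Cxcr4.

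Cardiac genes lay the other way. Of 19 detected members of the cardiac mesoderm and muscle list, 11 were lower by at least 2-fold with doxycycline and 1, Mef2c, was higher, against 2.01% and 4.59% of all detected genes. The median difference was -1.10. The median level was 6.34 with doxycycline and 7.63 in Er71-deficient cells, with 7.15 without doxycycline and 6.83 in wild type. The doxycycline array was the dimmest for 15 of 19 members, against 38.2% of all detected genes, and the Er71-deficient array the brightest for 13, against 28.5%.

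Bmp5, a BMP ligand of heart-forming and lateral mesoderm, had 5.44 with doxycycline and 9.85 in Er71-deficient cells, with 8.81 without doxycycline and 9.13 in wild type. The contractile gene Myl7, an atrial myosin light chain, had 5.01 with doxycycline and 8.81 in Er71-deficient cells, with 7.0 without doxycycline and 6.70 in wild type. Bmp5 set the doxycycline array apart from all the others, whereas Myl7 was spread, with the deficient array highest. The troponin genes Tnnc1 (4.41-fold) and Tnnt2 (2.13-fold) were lower too. For Tnnt2 the Er71-deficient array, at 7.43, was dimmer than the wild-type array, at 8.17.

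Among cardiac regulators, Mesp1, the earliest factor of heart-forming mesoderm, had 5.98 with doxycycline and 8.33 in Er71-deficient cells, with 7.44 without doxycycline and 6.97 in wild type. The T-box factor Tbx20 was 5.13-fold lower, Hand1 4.05-fold, Gata4 3.95-fold and the chromatin subunit Smarcd3 2.15-fold. Gata4 had 6.67 with doxycycline and 8.65 in Er71-deficient cells, with 8.31 without doxycycline and 8.47 in wild type. The remaining arrays were thus near the deficient level for Gata4. The ligands Fgf10 (4.60-fold) and Wnt2 (2.25-fold) were lower. Later or other cardiac factors differed by less than 2-fold: Nkx2-5 by -0.23, Isl1 by -0.26, Hand2 by -0.20 and Gata6 by -0.50 on the log2 scale.

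Primitive streak genes, which mark cells entering mesoderm, were lower by at least 2-fold in 6 of 18 detected members and higher in 0, with a median of -0.40. Over all detected genes 2.01% were lower and 4.59% higher. With the iER71 array taken by its title, none of the 18 was lower by 2-fold, 1 was higher and the median was 0.00. Lhx1, a homeobox gene of streak and lateral mesoderm, had 5.49 with doxycycline and 8.89 in Er71-deficient cells, with 8.12 without doxycycline and 6.87 in wild type. Tdgf1, the Nodal co-receptor, had 10.07 with doxycycline and 12.76 in Er71-deficient cells, with 12.37 without doxycycline and 12.01 in wild type. Both were highest in Er71-deficient cells and lowest with doxycycline. Eomes (3.77-fold), Fst (3.52-fold) and Mixl1 (3.26-fold) were the others besides Mesp1. Genes such as Nodal (-0.07), Fgf8 (-0.08), Evx1 (-0.25) and Foxa2 (0.00) differed by less than 0.3 on the log2 scale.

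Paraxial and lateral mesoderm genes were lower by 2-fold in 5 of 11 detected members and higher in 0, with a median of -0.74. Over all detected genes 2.01% were lower and 4.59% higher. Without a detection level 5 of 17 members were lower, with a median of -0.27. Pdgfra, the receptor that marks paraxial and cardiac mesoderm, had 5.30 with doxycycline and 8.64 in Er71-deficient cells, with 7.67 without doxycycline and 7.31 in wild type. The mesenchymal cadherin Cdh11 had 7.76 with doxycycline and 10.78 in Er71-deficient cells, with 10.63 without doxycycline and 10.35 in wild type. For Cdh11 the doxycycline array alone was low, whereas Pdgfra lay in between on the remaining arrays. Foxf1 (3.05-fold), a factor of lateral mesoderm, and the presomitic gene Msgn1 (2.52-fold) were lower, as was Hand1. Smooth muscle and pericyte genes were lower in 3 of 11 detected members and higher in 0, with a median of -0.78: Rgs5, the calponin gene Cnn1 (5.02-fold) and Tagln (2.36-fold). Without a detection level the median over 15 members was -0.42. Rgs5, a regulator of G proteins known as a pericyte marker, had 5.69 with doxycycline and 10.16 in Er71-deficient cells, with 9.33 without doxycycline and 9.99 in wild type. It was thus bright on every array but the doxycycline one. Another Rgs5 probe set differed by -1.55, in the same direction at a smaller size. The pericyte receptor Pdgfrb was 1.95-fold lower and the actin gene Acta2 differed by -0.17 on the log2 scale.

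**Figure D3:**
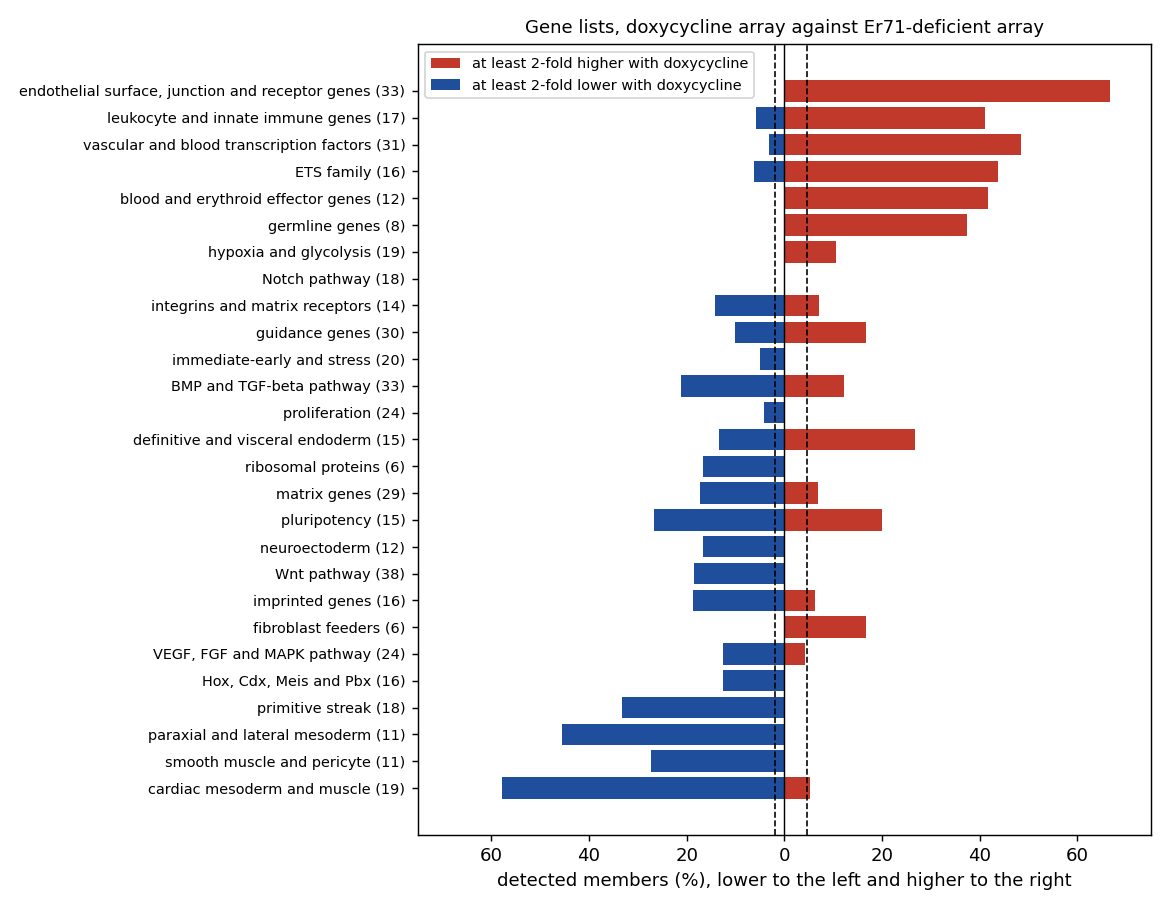
Share of each reported list's detected members (number in brackets) that were at least 2-fold higher (right, red) or lower (left, blue) with doxycycline than in Er71-deficient cells, with dashed lines at the shares of all detected genes, 4.59% and 2.01%. Lists run from the highest median difference at the top, 2.19 for endothelial genes, to the lowest, -1.10 for cardiac genes.

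These list counts depend on which iER71 array is used, since its title and its doxycycline label disagree. With the array taken by its title, 11 of 33 endothelial genes, 8 of 31 vessel and blood factors, 5 of 17 leukocyte genes and 2 of 12 blood effector genes were at least 2-fold higher. Lower by 2-fold were then 4 of 19 cardiac genes, 2 of 11 paraxial and lateral mesoderm genes, 1 of 38 Wnt pathway genes and 0 of 11 smooth muscle and pericyte genes. Of the 33 BMP and TGF-beta genes, 1 was then higher and 1 lower. Over all 8843 detected genes, 105 were then higher and 43 lower.

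The Wnt pathway had a median difference of -0.11. At least 2-fold lower were 7 of 38 detected members, and 0 were higher, against 2.01% and 4.59% of all detected genes. Ligands and their partners among these were Wnt5a (4.77-fold), Wnt2 and the Wnt-enhancing Rspo3 (2.25-fold). Wnt5a had 5.52 with doxycycline and 7.77 in Er71-deficient cells, with 7.58 without doxycycline and 7.53 in wild type. The receptor Fzd7 had 6.77 with doxycycline and 8.84 in Er71-deficient cells, with 8.28 without doxycycline and 8.28 in wild type. Both were lower on the doxycycline array than on any other. The secreted antagonist Frzb had 6.21 with doxycycline and 9.97 in Er71-deficient cells, with 9.91 without doxycycline and 8.0 in wild type. Dact1, an intracellular modulator, had 4.99 with doxycycline and 8.35 in Er71-deficient cells, with 6.85 without doxycycline and 6.69 in wild type. The nuclear effector Lef1 was 2.43-fold lower, while the target gene Axin2 differed by -0.47 and the effector Ctnnb1 by 0.40 on the log2 scale.

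The BMP and TGF-beta pathway was split, with 4 of 33 detected members at least 2-fold higher, 7 lower and a median of 0.00. The shares over all detected genes were 4.59% and 2.01%. The 4 higher were the receptor and co-receptor genes Tgfbr3 (4.24-fold), Acvrl1 (2.21-fold), Tgfbr2 (2.13-fold) and Eng. Tgfbr2 was counted as detected through the doxycycline array alone. With 32 added to each intensity, 1 member was at least 2-fold higher and 5 were lower. Ligands were among the 7 lower, with Bmp5, Bmp4 (3.60-fold) and Bmp7 (2.05-fold). Bmp4, which induces mesoderm, had 7.14 with doxycycline and 8.98 in Er71-deficient cells, with 9.07 without doxycycline and 8.98 in wild type. For Bmp4 the other arrays lay together and the doxycycline array stood alone. The extracellular modulators Bmper (5.18-fold) and Fst, the BMP target Msx2 (4.13-fold) and the signal carrier Smad1 (2.07-fold) were also lower. The direct BMP targets Id1, Id2 and Id3 differed by 0.01, 0.56 and 0.30 on the log2 scale.

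Of the VEGF, FGF and MAPK pathway, 1 of 24 detected members was at least 2-fold higher and 3 were lower, with a median of -0.18. Over all detected genes 4.59% were higher and 2.01% lower, so the higher count is near its share. Flt1 was the higher one. The lower ones were Etv5, Fgf10 and the receptor Fgfr2 (2.76-fold). The feedback inhibitors Spry2 and Dusp6 differed by 0.73 and 0.70, and Spry4 by -0.78. No Notch pathway member of 18 detected reached 2-fold either way, and few would at the shares over all detected genes. The list's median was 0.04. Notch1 differed most, by 0.81 on the log2 scale, with 7.55 with doxycycline and 6.74 in Er71-deficient cells, and 6.84 without doxycycline and 6.84 in wild type. The Notch targets Hey1 and Hey2 differed by 0.76 and 0.61 and the ligand Dll1 by -0.74.

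Matrix genes included differences in both directions, with 2 of 29 detected members at least 2-fold higher, 5 lower and a median of -0.05. The shares over all detected genes were 4.59% and 2.01%, so the higher count is near its share. Hapln1, which links hyaluronan to proteoglycans, had 7.68 with doxycycline and 4.01 in Er71-deficient cells, with 7.03 without doxycycline and 8.39 in wild type. The deficient array alone was low, and the wild-type array was brighter than the doxycycline one. Nid1, a basement membrane gene, was 4.28-fold higher. The lower ones were the cell-surface proteoglycans Gpc3 (5.91-fold) and Gpc4 (2.33-fold), the hyaluronan-binding Vcan (5.01-fold), the hyaluronan synthase Has2 (3.04-fold) and Fbln1 (2.19-fold). Vcan had 6.37 with doxycycline and 8.69 in Er71-deficient cells, with 8.78 without doxycycline and 9.61 in wild type.

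Of 14 detected integrins and matrix receptors, 1 was at least 2-fold higher and 2 lower, with a median of 0.03. With 4.59% of all detected genes higher and 2.01% lower, counts this small say little about the list. Itga2, a collagen receptor subunit, had 7.45 with doxycycline and 4.39 in Er71-deficient cells, with 4.65 without doxycycline and 4.65 in wild type, and was thus over the detection level with doxycycline alone. Itga8 (3.26-fold) and Itgb5 (2.16-fold) were lower. Guidance genes were higher in 5 of 30 detected members and lower in 3, with a median of 0.02. Plxnd1, the endothelial semaphorin receptor, had 9.33 with doxycycline and 6.60 in Er71-deficient cells, with 7.42 without doxycycline and 7.34 in wild type. Plxnc1 (3.42-fold), the semaphorins Sema3a (2.38-fold) and Sema6d (2.17-fold) and the venous ephrin receptor Ephb4 (2.22-fold) were higher. Epha4 (4.78-fold), Plxna4 (2.57-fold) and Efna5 (2.55-fold) were lower.

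Pluripotency genes did not move as 1 group, with 3 of 15 detected members at least 2-fold higher, 4 lower and a median of -0.07. The shares over all detected genes were 4.59% and 2.01%. Dppa4 had 7.48 with doxycycline and 3.84 in Er71-deficient cells, with 5.37 without doxycycline and 4.46 in wild type. Utf1 (4.68-fold) and Zfp42 (2.04-fold) were higher as well. Dppa4 and Utf1 were counted as detected through the doxycycline array alone. Without a detection level 4 of 23 pluripotency genes were at least 2-fold higher and 4 lower, with a median of 0.08. The lower ones were Tdgf1, Tbx3 (3.29-fold), Lin28a (2.33-fold) and Nanog (2.01-fold). Pou5f1, the core pluripotency factor, had 9.26 with doxycycline and 8.68 in Er71-deficient cells, with 8.68 without doxycycline and 7.89 in wild type. Of 8 detected germline genes, 3 were at least 2-fold higher and 0 lower, with a median of 0.24. The 3 were Dppa4, the meiotic Sycp3 (4.06-fold) and the germ cell helicase Ddx4 (3.21-fold). These germline genes were brightest with doxycycline and dim elsewhere, and none of the 3 reached the detection level on any other array. They were thus counted as detected through the doxycycline array alone, and the count over detected members is no measure of the list. Without a detection level 4 of 25 members were higher and 1 lower, with a median of 0.09. With the 75th percentile of all values as detection level, 0 members of the pluripotency list and 0 of the germline list remained at least 2-fold higher.

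Among imprinted genes, which are expressed from 1 parental copy, 1 of 16 detected was at least 2-fold higher and 3 lower, with a median of -0.13. Over all detected genes 4.59% were higher and 2.01% lower, so the higher count is near its share. Phlda2, a growth-restraining gene of the placenta, had 6.60 with doxycycline and 10.99 in Er71-deficient cells, with 9.66 without doxycycline and 9.80 in wild type. All the other arrays were thus far over the doxycycline array. Magel2 (4.88-fold) and the amino acid transporter Slc38a4 (2.15-fold) were lower, and the growth factor Igf2 was 2.79-fold higher. Hox, Cdx, Meis and Pbx genes were lower in 2 of 16 detected members and higher in 0, with a median of -0.23: Hoxb2 (2.75-fold) and Hoxb1 (2.04-fold).

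Endoderm genes were higher in 4 of 15 detected members and lower in 2, with a median of 0.00. Over all detected genes 4.59% were at least 2-fold higher and 2.01% lower. The 4 were Sox7, Hhex and Sox17, all of which also belong to vessel cells, and Dab2 (2.38-fold). The 2 were Gata4 and Pdgfra, which mesoderm also expresses, and Foxa2, a defining endoderm factor, was at 6.18 on both compared arrays. In the neuroectoderm list 0 of 12 detected members were higher and 2 lower, Otx2 (3.17-fold) and Cdh2 (2.71-fold), with a median of -0.08. Of 6 feeder genes detected, Thy1 was 2.49-fold higher and none lower by 2-fold, with a median of -0.15.

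Housekeeping and stress genes lay near the middle. At the shares over all detected genes, 4.59% higher and 2.01% lower, few members of each list would be called. In the proliferation list, 0 of 24 detected members were higher and 1 lower, the G1 cyclin Ccnd2 (4.95-fold), with a median of 0.00. Ccnd2 had 7.08 with doxycycline and 9.38 in Er71-deficient cells, with 8.79 without doxycycline and 8.97 in wild type. The immediate-early and stress list had 0 of 20 higher and 1 lower, Fos (2.49-fold), with a median of 0.02. Of 19 hypoxia and glycolysis genes, 2 were higher and 0 lower, with a median of 0.21: Pdk1 (6.58-fold), which restrains pyruvate oxidation, and Bnip3 (2.21-fold). With the difference between the array without doxycycline and the wild-type array taken off, 7 of the 19 were at least 2-fold higher. Of 6 detected ribosomal protein genes, 0 were higher and 1 lower, Rps18 (2.53-fold), with a median of -0.0045.

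The iER71 array without doxycycline and the wild-type array show where the genes lay between the compared populations. For 361 of the 406 higher genes both of these arrays lay between the doxycycline and the Er71-deficient array, and for 139 of the 178 lower genes. The doxycycline array was outermost for 390 of the 406 and 171 of the 178. The Er71-deficient array was outermost for 377 and 146. With the deficient level set at 0 and the doxycycline level at 1, the median position over the higher genes was 0.372 without doxycycline and 0.373 in wild type. Over the lower genes it was 0.308 without doxycycline and 0.274 in wild type. The genes were taken for their difference between the outer arrays, so an intermediate place of the others is a description only.

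Split at the midpoint of 0.5, both other arrays were nearer the Er71-deficient level for 249 of the 406 higher genes (61.3%) and 109 of the 178 lower genes (61.2%). Myct1, Emcn, Edn1, Tlr3 and Itga2 have this pattern among the higher genes. Tmem255a, of the 15 largest differences, has it too, with 9.06 with doxycycline and 5.20 in Er71-deficient cells, and 5.54 without doxycycline and 5.54 in wild type. Among the lower genes, Bmp5, Phlda2, Rgs5 and Cdh11 have it. Both other arrays were nearer the doxycycline level for 77 higher genes (19%) and 16 lower genes (8.99%). Cdh5, Fli1, Ramp2 and Calcrl belong to these 77, and their low level was confined to the deficient array among the 4. Tagln and Fos are among the 16.

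Wild type alone was nearer the doxycycline level for 45 higher genes (11.1%), which include Klhl4, Vav3, Cd34, Egfl7 and the growth factor Igf1. The same was so for 21 lower genes (11.8%), which include Frzb, Myl7, Lhx1 and Mesp1. The array without doxycycline alone was nearer the doxycycline level for 35 higher genes (8.62%) and 32 lower genes (18%). In this last pattern both iER71 arrays lay on 1 side and both arrays of the other lines on the other. Etv2, Flt1, Aim2 and Ptprb are among the 35, and Prdx2, Plac8, Car4, Hand1 and Scoc among the 32.

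**Figure D4:**
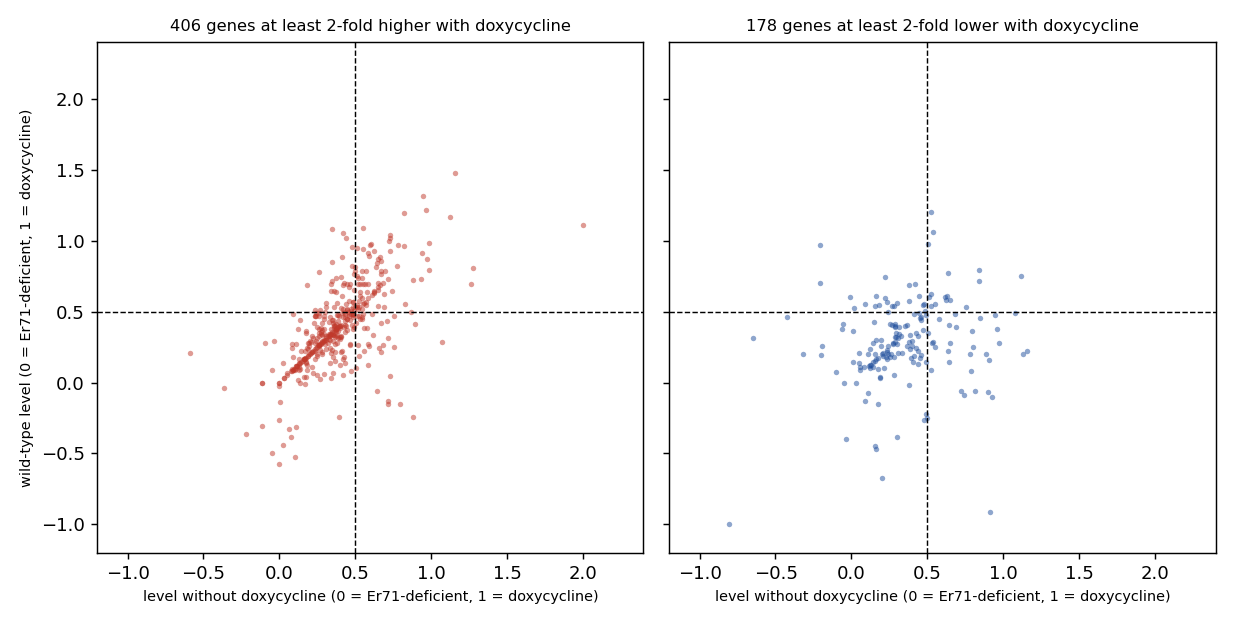
Position of the iER71 array without doxycycline (horizontal axis) and of the wild-type array (vertical axis) on a scale from 0, the Er71-deficient level, to 1, the doxycycline level, for the 406 higher genes (left) and the 178 lower genes (right), 1 point per gene, with dashed lines at 0.5. Most points lie in the lower left square, 249 of the 406 and 109 of the 178, and 1 gene, Hprt, lies outside the axes.

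The pair of the iER71 array without doxycycline and the wild-type array shares no array with the comparison and also sets the iER71 line against another line. In that pair 39 genes (0.441%) were at least 2-fold higher without doxycycline than in wild type, and 49 (0.554%) at least 2-fold lower. Of the 39, 10 (25.6%) were also among the 406 higher with doxycycline, which is 2.46% of those, and 5 (12.8%) were among the 178 lower. Of the 49, 13 (26.5%) were also among the 178 lower, which is 7.30% of those, and 3 (6.12%) were among the 406 higher. For 339 of the 406 and 118 of the 178, the difference of this pair was within 0.5 on the log2 scale. Taking that difference off each gene left 362 of the 406 and 138 of the 178 at least 2-fold. The difference of Etv2 then was 0.96, just under 2-fold, in place of 1.61.

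Prdx2, a peroxide-removing enzyme, had 7.99 with doxycycline and 11.10 in Er71-deficient cells, with 8.85 without doxycycline and 11.28 in wild type. Both iER71 arrays were thus low and both others high. Aim2, a sensor of DNA, had 10.40 with doxycycline and 6.60 in Er71-deficient cells, with 8.82 without doxycycline and 7.62 in wild type. Adam23 had 8.99 with doxycycline and 7.08 in Er71-deficient cells, with 9.13 without doxycycline and 7.63 in wild type. The epithelial cadherin Cdh1 had 8.42 with doxycycline and 7.23 in Er71-deficient cells, with 8.29 without doxycycline and 6.93 in wild type. For Adam23 and Cdh1 the iER71 arrays were close to each other, and little of the difference was left once that of the other pair was taken off, 0.41 and -0.16.

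Hprt, a purine salvage gene on the X chromosome, had 9.43 with doxycycline and 10.64 in Er71-deficient cells, with 6.81 without doxycycline and 10.55 in wild type. It was lowest on the iER71 array without doxycycline, 3.74 on the log2 scale below wild type, and 2.32-fold lower with doxycycline than in Er71-deficient cells. Its neighbours were looked at after these values were seen. Of the 16 genes up to 8 steps to either side in the gene table, 9 were detected, 4 were at least 2-fold lower with doxycycline than in Er71-deficient cells and 1, Mbnl3, higher, against 2.01% and 4.59% of all detected genes. The 4 are Gpc4, Gpc3, Plac1 and Fam122b. Plac1, the next gene, had 6.24 with doxycycline and 7.49 in Er71-deficient cells, with 6.35 without doxycycline and 8.64 in wild type. Fam122b, next to Plac1, had 6.68 with doxycycline and 7.97 in Er71-deficient cells, with 6.92 without doxycycline and 8.04 in wild type. Plac1 and Fam122b, like Prdx2, were low on both iER71 arrays, whereas Gpc3 was low on the doxycycline array alone, at 8.54 against 11.10 in Er71-deficient cells. Around Etv2, 8 of 16 neighbours were detected, with 2 at least 2-fold lower, Sbsn and Dmkn, and 0 higher. These counts are small. The labels do not say where in the genome the inducible transgene lies, and whether it lies near Hprt, Plac1 and Fam122b was not tested.

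**Figure D5:**
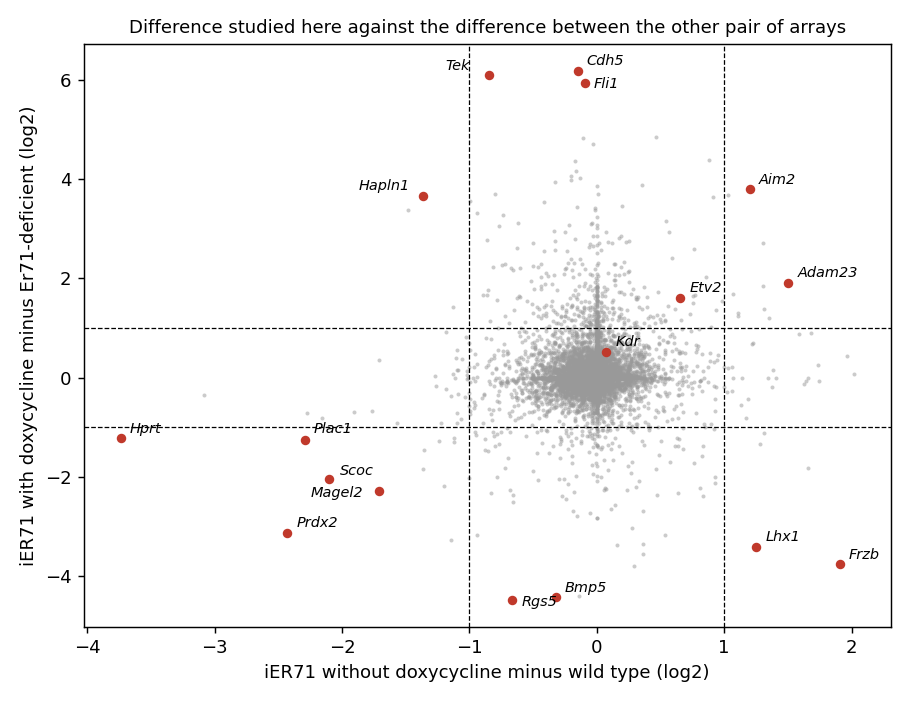
Difference of the iER71 array with doxycycline minus the Er71-deficient array (vertical axis, log2) against the difference of the iER71 array without doxycycline minus wild type (horizontal axis, log2) for 8843 detected genes, 1 grey point each, with dashed lines at 2-fold and some named genes in red. Cdh5 and Fli1 lie high near the vertical centre, Tek lies high at -0.85 on the horizontal axis, and Prdx2 and Hprt lie at -2.43 and -3.74 on the horizontal axis.

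The 2-fold limit cuts through the lists without a gap. Just inside it among higher members were Eng (2.08-fold), Gata2 (2.07-fold) and Zfp42 (2.04-fold). Just outside were the immune receptor Cd40 (1.99-fold), the hexokinase Hk1 (1.94-fold), the clotting factor gene Vwf (1.92-fold), the exchange factor Fgd5 (1.89-fold), the oxygen sensor Egln1 (1.89-fold) and Itga9 (1.82-fold). Among lower members, Hoxb1 (2.04-fold), Bmp7 (2.05-fold) and Nanog (2.01-fold) lay just inside. Sall4 (1.99-fold), Fgf5 (1.99-fold), Meis2 (1.98-fold), Plxna2 (1.98-fold), Pdgfrb (1.95-fold) and Egr2 (1.92-fold) lay just outside.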

How the data were processed

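The deposited values are linear intensities that the authors had summarised to 1 value per probe set and array and normalized. RMA, Affymetrix Expression Console and the build mm8 are named in the submitters' processing notes without versions. Because RMA normally returns log2 values, the log2 of each deposited intensity was taken here. There are no detection calls, so background is unknown. The small number of arrays limits how precise any value is.

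The platform annotation gave 1 symbol for 14996 of 23332 probe sets, several for 1019 and none for 7317, and 14941 of those with 1 symbol matched the gene table. Of several probe sets of a gene (135 genes) the brightest on average was used. Array groups follow the doxycycline and genotype labels. Genes were called by a log2 difference of 1 or more (2-fold), with no test.

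The comparison, the 28 lists (757 distinct symbols, 481 detected) and the genes named were chosen with earlier results of these data known. The result of 1 list is not reported here. The rule took Etv2, Kdr and, each way, the 15 largest differences without predicted genes and olfactory or vomeronasal receptors, up to 4 members of each list, up to 8 genes of each level pattern, up to 6 genes each way with the same sign in the iER71 without doxycycline and wild-type pair, and up to 6 list members nearest outside 2-fold each way. Other list members and the gene families under other observations were named after their values were seen. The calls were also run on simulated data with small even noise and shifts larger than the 2-fold limit, so their recovery was set in advance. Line differences, dim arrays and equal values were not simulated. Python 3.11.15 with pandas 2.3.3 and numpy 2.4.6, R 4.3.3 and limma 3.58.1 (cyclic loess) were used.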

Additional observations from a re-analysis of the deposited data

How the results depend on the processing

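No paired analysis was possible because each group has 1 array. Line and ER71 dose changed together and cannot be told apart in this comparison. Without replicates, ratios on dim arrays are uncertain. The titles of the iER71 arrays contradict their doxycycline labels. Under median centring, quantile normalization, cyclic loess, averaged probe sets and leaving out equal values, 349 to 403 genes were higher and 164 to 187 lower. The cause of the changes below was not tested. Adding 32 to each intensity left 303 genes higher and 120 lower. With the 75th percentile of all values as detection level, 278 were higher and 118 lower. Taking the iER71 array by its title gave 105 higher genes, 43 lower genes and 1 list with a median of at least 0.5 either way, against 7 lists as reported. Asb4 (0.31), Cdh2 (0.0767), Etv5 (0.13), Vcan (0.0879) and Pf4 (-0.15) then changed sign. Without the other pair's difference, Cdh1 (-0.16), Hprt (2.52), Plac1 (1.04) and Scoc (0.068) changed sign. Without a detection level 4 lists reached a median of 0.5, and at the 75th percentile 15 did, with 118 lower genes, fewer genes being counted. List medians there were 1.61 for the ETS family, -3.02 for paraxial and lateral mesoderm, -2.14 for primitive streak and -0.13 for blood effectors, in place of 0.27, -0.74, -0.40 and 0.27. Higher genes with both other arrays nearer doxycycline numbered 50 with 32 added to each intensity. Higher genes with wild type alone nearer doxycycline numbered 28 at the 75th percentile. Lower genes with both other arrays nearer doxycycline numbered 33 without a detection level, 9 with 32 added and 5 at the 75th percentile. Lower genes with the array without doxycycline alone nearer numbered 20 with 32 added and 16 at the 75th percentile. Genes past 2-fold the same way in both pairs numbered 23, or 35 without a detection level and 13 with 32 added.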

Other observations

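Of the genes at least 2-fold apart, 323 of the 406 higher and 116 of the 178 lower stood in none of the lists. Some families among them, taken after the values were seen, are described here as values, against 4.59% of all detected genes at least 2-fold higher and 2.01% lower. Most were taken by the start of the symbol. Some counted genes, such as Tubgcp2, Psmc3ip and Slc9a3r1, share it without being strict members. Sialyltransferases, which cap cell-surface sugars with sialic acid, were at least 2-fold higher with doxycycline in 5 of 15 detected members and lower in 1. Besides St8sia1 these were St8sia4 (7.71-fold), St6galnac3 (4.96-fold), St8sia3 (2.60-fold) and St3gal1 (2.20-fold), with St6galnac4 lower (2.28-fold). St8sia4, which makes polysialic acid, had 7.84 with doxycycline and 4.90 in Er71-deficient cells, with 5.53 without doxycycline and 5.87 in wild type. St8sia4 and St8sia3 were counted as detected through the doxycycline array alone, and St6galnac4 through the Er71-deficient array alone. Cadherins and numbered protocadherins differed in both directions, with 3 of 12 higher and 5 lower. Cdh5, Pcdh1 (3.16-fold) and Cdh1 were higher, and Cdh11, Pcdh18 (6.21-fold), Pcdh7 (3.98-fold), Cdh2 and Cdh6 (2.03-fold) were lower.

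Retinoid genes were at least 2-fold lower in 5 of 12 detected members and higher in 0. Crabp2, a carrier of retinoic acid, had 6.45 with doxycycline and 8.95 in Er71-deficient cells, with 7.93 without doxycycline and 8.59 in wild type. Its relative Crabp1 was 3.97-fold lower, the synthesis enzyme Aldh1a2 2.57-fold, Rdh11 2.54-fold and the retinoic acid hydroxylase Cyp26a1 2.05-fold, while the receptor Rara differed by 0.11 on the log2 scale. Aldh1a2 was counted as detected through the Er71-deficient array alone. Genes with solute carrier symbols (Slc) were higher in 14 of 159 and lower in 2, with a median difference of 0.0046. The higher ones were led by the amino acid transporter Slc7a8 (6.97-fold) and the fatty acid transporter Slc27a2 (5.33-fold). Slc27a2 was counted as detected through the doxycycline array alone. Of 67 mitochondrial ribosome genes, 0 reached 2-fold either way. The same was so for 33 genes with proteasome symbols, 37 with F-box symbols and 11 with tubulin symbols. In groups of these sizes few genes would be called at the share over all detected genes.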
